A study of Mus musculus with 12 samples.

Results

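The Cyp2b genes of the mouse and Nr1i3, which encodes their best known regulator, the nuclear receptor CAR, were examined in liver RNA of mice lacking A1cf and of wild-type mice. Members were chosen by gene name, as Cyp2b followed by a number or as Nr1i3, and selected on a mean of at least 5 counts over 12 libraries; the difference of Cyp2b9 between KO and WT was also known when the set was proposed. Of 6 such names in a table of 46882, 3 met that minimum: Cyp2b9, Cyp2b10 and Nr1i3. The nearest gene above the minimum was Cyp2b10, at a mean of 21.2 counts, and the nearest below it was Cyp2b13, at 0.25 counts, while Cyp2b19 and Cyp2b23 were lower still. These 3 low genes are given below as counts only.

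The KO group held 6 livers of A1cf -/- mice and the WT group 6 livers of wild-type mice. All mice were of the C57BL/6 strain and 6 to 8 weeks old. A1CF binds RNA and is best known as the cofactor of APOBEC1, an enzyme that edits Apob mRNA. The labels give no further description of the deleted allele, and the design text calls the libraries biological replicates.

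Cytochromes P450 of the CYP2B subfamily oxidise drugs, steroids and fatty acids in the endoplasmic reticulum of hepatocytes. CAR, in a dimer with the retinoid X receptor, binds paired AGGTCA-like hexamers near their genes, and phenobarbital activates it through its release from a complex in the cytoplasm. Cyp2b10 is the classic CAR target of mouse liver, whereas Cyp2b9 and Cyp2b13 are known as genes of female liver, held low in males by the male pattern of growth hormone secretion.

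The sequences just upstream of the genes are shown because Cyp2b9 and Cyp2b13, whose counts differed so widely, are almost alike there. They come from RefSeq (GRCm38, the build also called mm10), plus strand, and matched all 5 Cyp2b genes and Nr1i3 by symbol. The windows are chr7:26173159-26173408 for Cyp2b9, chr7:26061245-26061494 for Cyp2b13 and chr7:25897408-25897619 for Cyp2b10. The first 2 hold the 250 bases before the RefSeq start. The window of Cyp2b10 was shortened to 212 bases, since the gene model used for counting begins 38 bases before that start. Capitals mark an A/T-rich run of 8 bases near the start in each gene and, in Cyp2b9 and Cyp2b13, the bases at which these 2 windows differ.
Cyp2b9: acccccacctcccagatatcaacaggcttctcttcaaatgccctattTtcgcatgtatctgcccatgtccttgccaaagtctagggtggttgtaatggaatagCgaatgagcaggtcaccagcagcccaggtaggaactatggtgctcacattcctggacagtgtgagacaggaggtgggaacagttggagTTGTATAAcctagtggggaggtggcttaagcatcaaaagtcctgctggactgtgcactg
Cyp2b13: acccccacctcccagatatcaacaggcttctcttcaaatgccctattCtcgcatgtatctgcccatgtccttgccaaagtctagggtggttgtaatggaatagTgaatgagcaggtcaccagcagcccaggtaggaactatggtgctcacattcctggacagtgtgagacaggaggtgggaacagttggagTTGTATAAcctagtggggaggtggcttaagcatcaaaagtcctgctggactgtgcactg
Cyp2b10: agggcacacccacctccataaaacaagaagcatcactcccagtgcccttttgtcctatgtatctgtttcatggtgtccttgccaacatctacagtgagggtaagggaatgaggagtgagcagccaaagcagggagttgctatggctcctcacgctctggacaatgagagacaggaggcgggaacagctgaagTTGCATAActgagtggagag

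Cyp2b9 and Cyp2b13 differed at 2 of 250 bases, T48C and C104T, with positions counted from 1 at the 5′ end of the window and the base of Cyp2b9 first. These lie 203 and 147 bases upstream of the start, and the identity was 99.2%. Cyp2b9 and Cyp2b10 were 70% identical over the 250 bases, gaps counted as differences. The run TTGTATAA stood 59 bases upstream of the start in Cyp2b9 and Cyp2b13, and occurred in 0.536% of 32851 mouse promoter windows of this length on either strand. At the matching place, 58 bases upstream, Cyp2b10 had TTGCATAA, present in 0.694% of windows. The single hexamer AGGTCA occurred once in Cyp2b9 and once in Cyp2b13, 138 bases upstream in both, and in 14% of windows, but not in Cyp2b10. The repeat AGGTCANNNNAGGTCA, with a spacing at which CAR is known to bind, was in none of the Cyp2b windows and in 0.0152% of all. The known phenobarbital-responsive enhancer of Cyp2b10 lies further upstream than the windows searched, and these matches of letters are descriptions and not binding sites.

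Total counts per library ran between 22129092 and 51082317 in KO and between 25898171 and 40597491 in WT. A1cf was at 8.20 to 12.6 CPM in KO livers against 47.9 to 53.8 CPM in WT livers, without overlap, where CPM are counts scaled to library size. The male marker Ddx3y was at 29.8 to 69.9 CPM in KO and 23.0 to 50.6 CPM in WT, and the female marker Xist reached at most 0.210 CPM in KO and 0.221 CPM in WT. Both groups were therefore male by these genes. Summed hepatocyte markers ran between 83429 and 103179 CPM in KO and between 90857 and 112404 CPM in WT. Of 13706 genes tested by quasi-likelihood in edgeR, 523 (3.82%) passed an adjusted p (Benjamini-Hochberg) of 0.05, of which 236 (1.72% of those tested) were higher and 287 (2.09%) lower in KO. With library totals as the only scaling, 266 were higher and 139 lower. Without any 1 library, between 266 and 638 genes passed.

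Cyp2b9 (chr7:26173411-26210661, plus strand, mm10) was almost silent in WT liver and was readily measured in every KO liver. It stood at 92.4 CPM in KO 574, 25.6 in KO 584, 97.6 in KO 588, 58.1 in KO 591, 4.89 in KO 602 and 38.3 in KO 780. In WT libraries it stood at 0.656 CPM in WT 573, 0.183 in WT 590, 1.31 in WT 601, 0.993 in WT 776, 0.696 in WT 777 and 0.751 in WT 778. Every KO library thus lay above every WT library, and the lowest KO value was 3.72 times the highest WT value. KO libraries differed widely among themselves, with the highest 20.0 times the lowest, against 7.17 times in WT, where the counts behind the values were only 5 to 32 per library. In bulk liver, fewer cells that make a transcript and less of it per cell cannot be told apart.

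Cyp2b9 averaged 52.8 ± 37.0 CPM in KO and 0.765 ± 0.376 CPM in WT (SD, n = 6 each), a ratio of the means of 69.0. Its log2 fold change was 6.12 (standard error 0.73) and its adjusted p over all genes was 0.00149 in edgeR. The two-sided p of an exact permutation test on its log2 CPM was 0.00216, which is the lowest possible with 924 assignments of the libraries. Cyp2b9 was 1 of the 3 members past the adjusted threshold, where 3.82% of all tested genes passed. Because this rise was known when the genes were chosen, that count and these p-values describe the data and are no independent evidence. Among libraries numbered 573 to 602, Cyp2b9 averaged 55.7 CPM in 5 KO and 0.717 CPM in 3 WT libraries. Among those numbered 776 to 780 it stood at 38.3 CPM in 1 KO library and averaged 0.814 CPM in 3 WT libraries. The difference in mean log2 CPM was 5.86 in the first range of numbers and 5.46 in the second. In the first range alone, with 8 libraries, the fold change was 6.32 on the log2 scale and the adjusted p rose to 0.106.

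**Figure D1:**
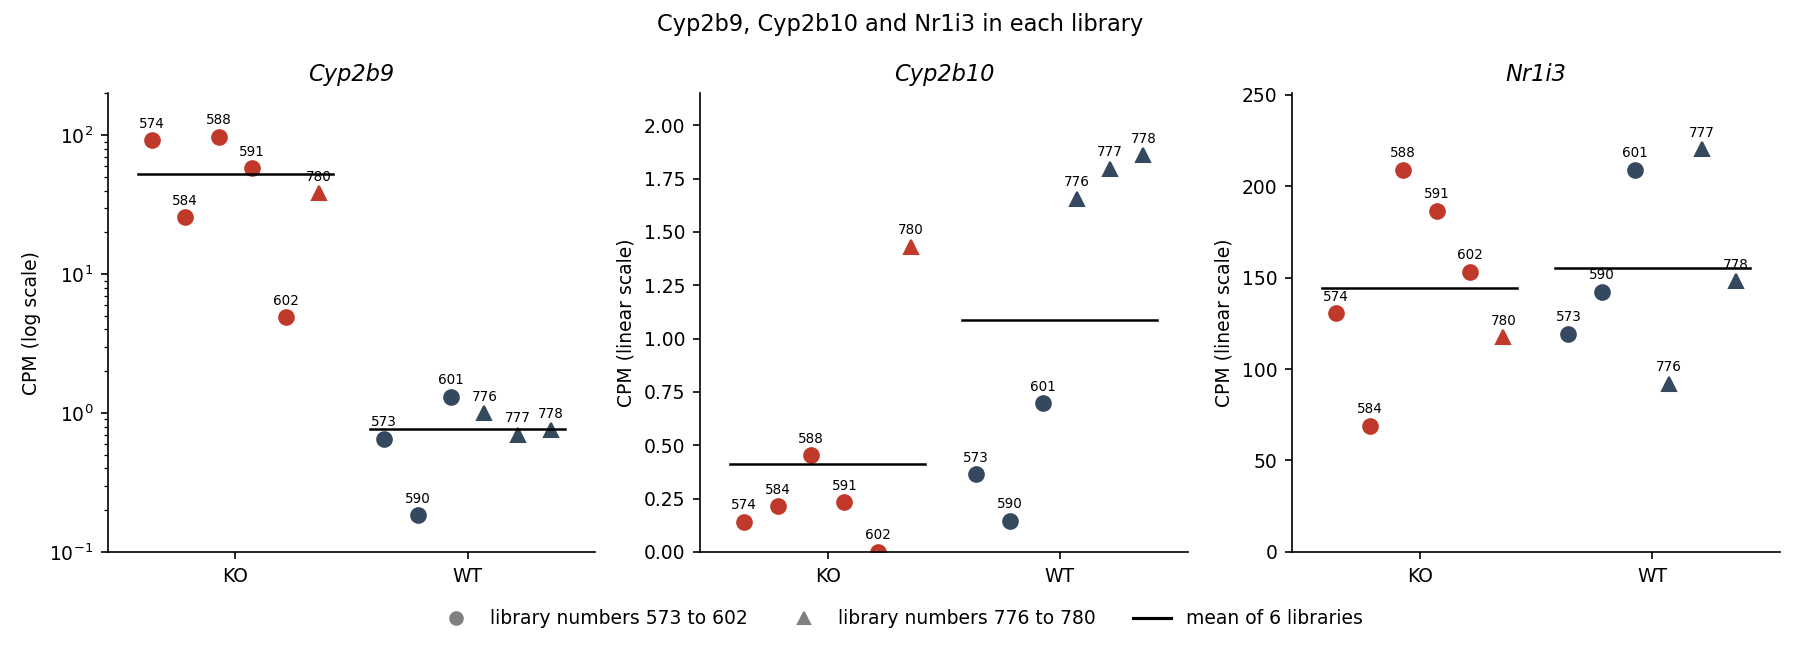
CPM of Cyp2b9 (log axis), Cyp2b10 and Nr1i3 (linear axes from 0) in each of 6 KO and 6 WT libraries, labelled by library number, with circles for numbers 573 to 602, triangles for 776 to 780 and lines for group means. For Cyp2b9 all KO points, from 4.89 to 97.6 CPM, lie above all WT points, whereas the groups overlap for the other genes and the triangles stand highest for Cyp2b10.

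Cyp2b10 (chr7:25897620-25926624, plus strand, mm10), the classic transcript raised by CAR activators, was barely present in either group. It was at 0.141 CPM in KO 574, 0.214 in KO 584, 0.453 in KO 588, 0.233 in KO 591, 0 in KO 602 and 1.43 in KO 780. It was at 0.364 CPM in WT 573, 0.147 in WT 590, 0.698 in WT 601, 1.66 in WT 776, 1.80 in WT 777 and 1.86 in WT 778. The groups overlapped, and the highest KO library, KO 780, lay above 3 WT libraries. Cyp2b10 averaged 0.412 ± 0.520 CPM in KO and 1.09 ± 0.772 CPM in WT (SD, n = 6 each). The log2 fold change was −1.38 with a standard error of 0.73, which did not pass (adjusted p = 0.306, edgeR), and an exact permutation test gave a two-sided p of 0.0996.

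The level of Cyp2b10 separated by range of library numbers and not by genotype. It lay between 0 and 0.698 CPM in all 8 libraries numbered 573 to 602 and between 1.43 and 1.86 CPM in all 4 numbered 776 to 780, without overlap. The labels do not say what the numbers stand for. Within the first range Cyp2b10 averaged 0.208 CPM in KO and 0.403 CPM in WT, and within the second it was at 1.43 CPM in the KO library and averaged 1.77 CPM in WT. With the range as a term in the model, the log2 fold change was −0.57 (adjusted p = 0.478, edgeR). Without KO 780 it was −2.20 (adjusted p = 0.106, edgeR).

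The composition of the Cyp2b transcripts differed with genotype. Of the counts assigned to the 5 Cyp2b genes, Cyp2b9 held 96.4% to 99.8% in KO libraries, of 113 to 4986 counts, and 27.9% to 65.3% in WT libraries, of 9 to 73 counts. Cyp2b10 held at most 3.59% in KO and between 34.7% and 72.1% in WT. The Wilson 95% interval for the share of Cyp2b9 was widest in WT 590, from 26.7% to 81.1%, and it covers counting error only. All KO shares of Cyp2b9 lay above all WT shares, a pattern that restates its rise. With the 5 genes summed, so that the division of reads between copies plays no part, the log2 fold change was 4.86, with 0.71 as its standard error (adjusted p = 0.00442, edgeR).

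Cyp2b13 (chr7:26061497-26096197, plus strand), the nearest relative of Cyp2b9 by its upstream window, had 2 counts in KO 588, 1 in KO 602 and 0 in the other libraries of both groups. A count of 0 allows up to 3 counts in a library, or 0.0729 to 0.123 CPM across WT libraries, so Cyp2b13 was not detectable in WT and near the floor in KO. The depth was sufficient to place it far below Cyp2b9 in KO 588, where Cyp2b9 had 4960 counts. Cyp2b19, known from skin, had 1 count in KO 588 and 1 in WT 573, and Cyp2b23 had none. The longest coding transcripts of Cyp2b9 and Cyp2b13 were 89.2% identical (GENCODE M21), and those of Cyp2b9 and Cyp2b10 84.4%. Of stretches of 50 bases of the Cyp2b9 transcript, 10.8% also occurred in another Cyp2 gene, as did 5.16% of 75-base and 1.18% of 100-base stretches. For the Cyp2b13 transcript these shares were 20.0%, 7.66% and 1.18%. Only exact matches to Cyp2 transcripts were searched. Most of each transcript can therefore be told from its Cyp2 relatives at these lengths, while the read length is not given in the sources used here.

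Nr1i3 (chr1:171213970-171220701, plus strand, mm10), the gene of CAR itself, had widely overlapping levels in both groups, and no difference was called. It was at 130.6 CPM in KO 574, 69.0 in KO 584, 208.9 in KO 588, 186.5 in KO 591, 153.1 in KO 602 and 117.3 in KO 780. It was at 119.2 CPM in WT 573, 142.1 in WT 590, 208.8 in WT 601, 91.9 in WT 776, 220.2 in WT 777 and 148.1 in WT 778. The lowest library was KO 584 and the highest WT 777, and the groups overlapped over most of their range. Nr1i3 averaged 144.2 ± 50.2 CPM in KO and 155.1 ± 50.2 CPM in WT (SD, n = 6 each). The log2 fold change was −0.10, with 0.27 as its standard error (adjusted p = 0.862, edgeR), and the exact permutation test gave a two-sided p of 0.688. The sign was not stable: without KO 584 the log2 fold change was 0.04, and without WT 777 it was 0.02. The gene shares 3304 of its 4414 exonic bases with Tomm40l, a mitochondrial import gene on the other strand. No strand option was set in the counting, so reads over both genes could not be assigned, and the counts of Nr1i3 come largely from its other exonic bases. Tomm40l averaged 32.0 ± 12.2 CPM in KO and 26.9 ± 8.86 CPM in WT, a log2 fold change of 0.26 (adjusted p = 0.644, edgeR).

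Per kilobase of exon, Cyp2b9 averaged 28.2 ± 19.7 RPKM in KO and 0.408 ± 0.201 RPKM in WT (SD, n = 6 each). It ranked 20 of 54 Cyp2 genes in KO and 34 in WT. In KO its mean level lay between those of Cyp2c70 (33.2 RPKM) and Cyp2c38 (22.6 RPKM), differences smaller than its own spread. Cyp2b10 averaged 0.195 ± 0.246 RPKM in KO and 0.514 ± 0.366 RPKM in WT, ranks 36 and 32. In WT 573, WT 590 and WT 601 Cyp2b9 was the higher of the pair, at 0.0977 to 0.700 RPKM against 0.0694 to 0.330 RPKM for Cyp2b10. In WT 776, WT 777 and WT 778 the order was the opposite, with Cyp2b9 at 0.371 to 0.529 RPKM and Cyp2b10 at 0.784 to 0.881 RPKM. Nr1i3 averaged 32.7 ± 11.4 RPKM in KO and 35.1 ± 11.4 RPKM in WT, values limited by the overlap with Tomm40l.

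Among the Cyp2 genes, P450s of drug, steroid and fatty acid oxidation, 38 of 54 were tested. Of these, 2 were higher and 1 was lower in KO, or 7.89% against 3.82% of all tested genes, and the median log2 fold change was −0.01, against 0.01 over all tested genes. The count includes Cyp2b9, whose rise was known when the genes were chosen, so this share is no independent evidence. Besides Cyp2b9, the rise was in Cyp2d12, at 1.94 ± 1.46 CPM in KO and 0.240 ± 0.197 CPM in WT (log2 fold change 3.07, adjusted p = 0.0149, edgeR), with overlapping groups, and has close Cyp2d relatives between which reads may be divided. Cyp2j9 was lower at 12.8 ± 1.71 CPM in KO and 19.8 ± 3.71 CPM in WT (log2 fold change −0.64, adjusted p = 0.0153, edgeR). Both calls were lost without the deepest library of each genotype, KO 588 and WT 573 (adjusted p = 0.0702 for each, edgeR), which left 1 Cyp2 gene past the threshold, and in libraries 573 to 602 alone (0.197 for Cyp2d12 and 0.2 for Cyp2j9), which left 0. Of the P450 genes that neighbour Cyp2b9 on chromosome 7, none passed. Cyp2a4, a steroid hydroxylase that is also more abundant in females, is the next P450 gene downstream and averaged 12.9 ± 19.9 CPM in KO and 4.99 ± 3.42 CPM in WT (log2 fold change 1.37, adjusted p = 0.342, edgeR). Its KO mean rested on KO 584, at 53.3 CPM, a library in which Cyp2b9 was among the lower KO values. Cyp2a4 and Cyp2a5 are close copies between which reads may be divided. Cyp2a5, a coumarin hydroxylase, had a log2 fold change of 0.39, Cyp2g1 of 0.71, Cyp2s1 of 0.09 and Cyp2a12 of −0.24, none of them past the threshold.

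**Figure D2:**
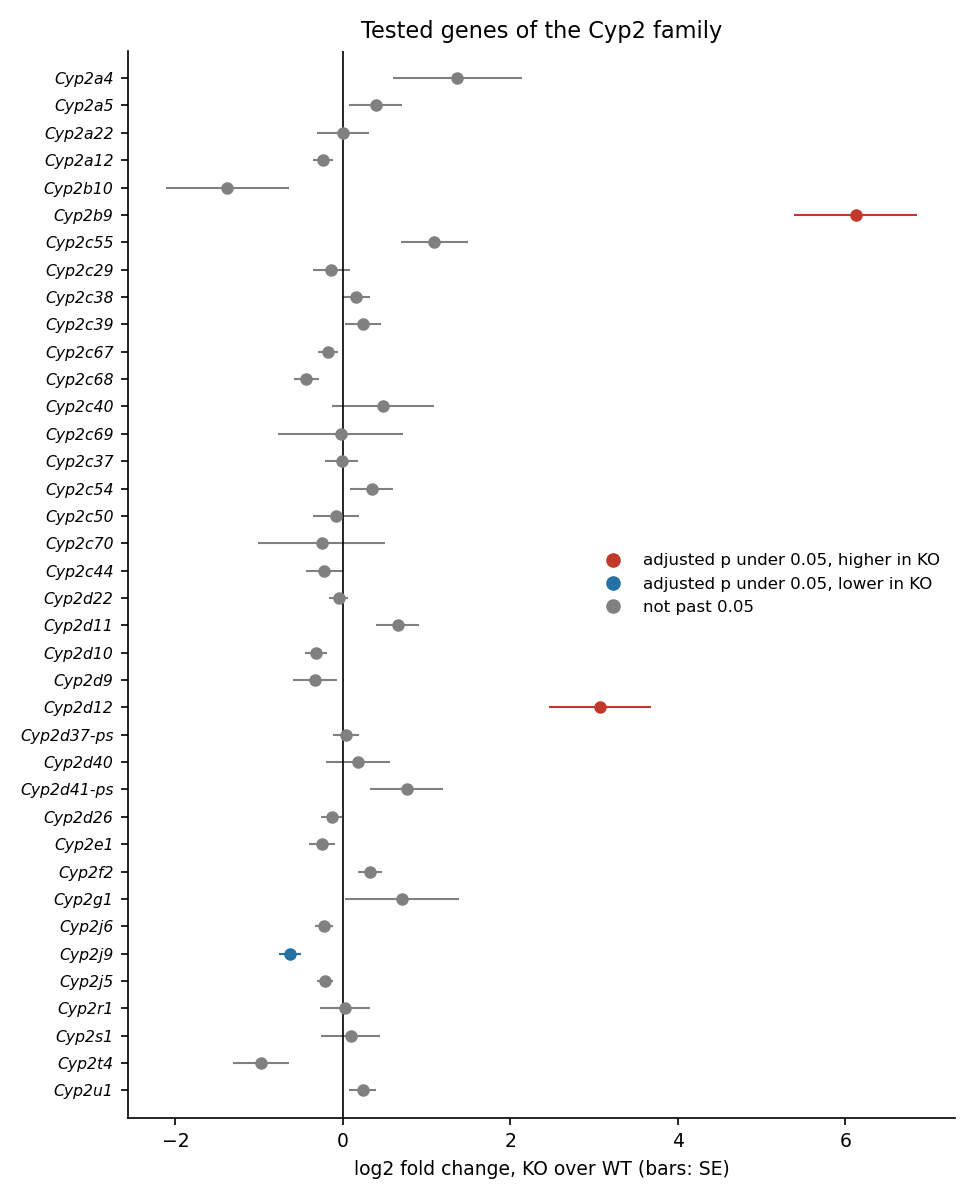
Log2 fold change of KO over WT with its standard error (bars) for the 38 tested Cyp2 genes, in red where higher and in blue where lower in KO past an adjusted p of 0.05. Cyp2b9, at 6.12, stands furthest from 0, Cyp2d12 is at 3.07 and Cyp2j9 at −0.64, and the Cyp2a genes beside Cyp2b9 on chromosome 7 are grey.

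Genes of the CAR pathway were then read in the same fit. Of 34 listed target genes of CAR, 33 were tested and none passed in either direction, against 3.82% of all tested genes. The median log2 fold change was 0.07, against 0.01 over all tested genes. In edgeR, 6 of the 33 had an unadjusted p under 0.05, a cut for which no share of all tested genes is given here. DESeq2 called 1 of them, where it called 1175 of all 13706 tested genes. Without WT 590, edgeR called 1, higher in KO. The smallest p-values were those of Slco1a4 and Abcc3. Slco1a4, an uptake transporter of organic anions, was at 140.1 to 291.2 CPM in KO and 57.3 to 186.3 CPM in WT (log2 fold change 0.79, adjusted p = 0.114, edgeR). Abcc3, an export transporter of conjugates, was at 258.6 to 446.3 CPM in KO and 389.6 to 583.6 CPM in WT (log2 fold change −0.42, adjusted p = 0.118, edgeR). Cyp2c29, a retinoid-oxidising P450 and familiar CAR target, averaged 464 ± 185.4 CPM in KO and 510 ± 86.7 CPM in WT, and Cyp3a11, the main CYP3A enzyme, 2576 ± 1187 CPM in KO and 3395 ± 867 CPM in WT, without a call for either. Summed over the 33 tested genes, KO libraries lay between 8809 and 16314 CPM and WT libraries between 11897 and 15863 CPM, and the ranges overlapped.

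Nr1i3 was tested with 27 genes that act with CAR, such as its dimer partners, coactivators, corepressors and the chaperones that hold it in the cytoplasm. Of these 28 genes, 0 were higher and 1 was lower in KO (3.57% called, against 3.82% of all tested genes), with a median log2 fold change of −0.10. In edgeR, 8 of them had an unadjusted p under 0.05, again without a share over all genes. DESeq2 called 3, where it called 1175 of all 13706 tested genes. The lower gene was Rxra, the main retinoid X receptor of liver and partner of CAR. It had 412.3 to 447.8 CPM in KO livers against 482.4 to 589.9 CPM in WT livers, without overlap, as was so for 3.30% of all tested genes. Ppp2r1a, lower in KO, and Ncor1, higher in KO, also had no overlap but were not called. Rxra averaged 429.1 ± 14.7 CPM in KO and 531.5 ± 41.5 CPM in WT (log2 fold change −0.31, standard error 0.08, adjusted p = 0.0459, edgeR). The call was narrow: the direction stayed, but only 1 of 12 fits that each left out a library passed, with adjusted p-values of 0.0465 to 0.0995. It was also lost with library totals as the only scaling (adjusted p = 0.119), without the low-count filter, in libraries 573 to 602 alone, without the deepest libraries and without the 3 libraries high in acute phase genes described below (0.101 to 0.176 over these settings, edgeR). Nr0b2, or SHP, a corepressor of several nuclear receptors, averaged 23.4 ± 11.5 CPM in KO and 42.5 ± 15.2 CPM in WT (adjusted p = 0.189, edgeR).

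**Figure D3:**
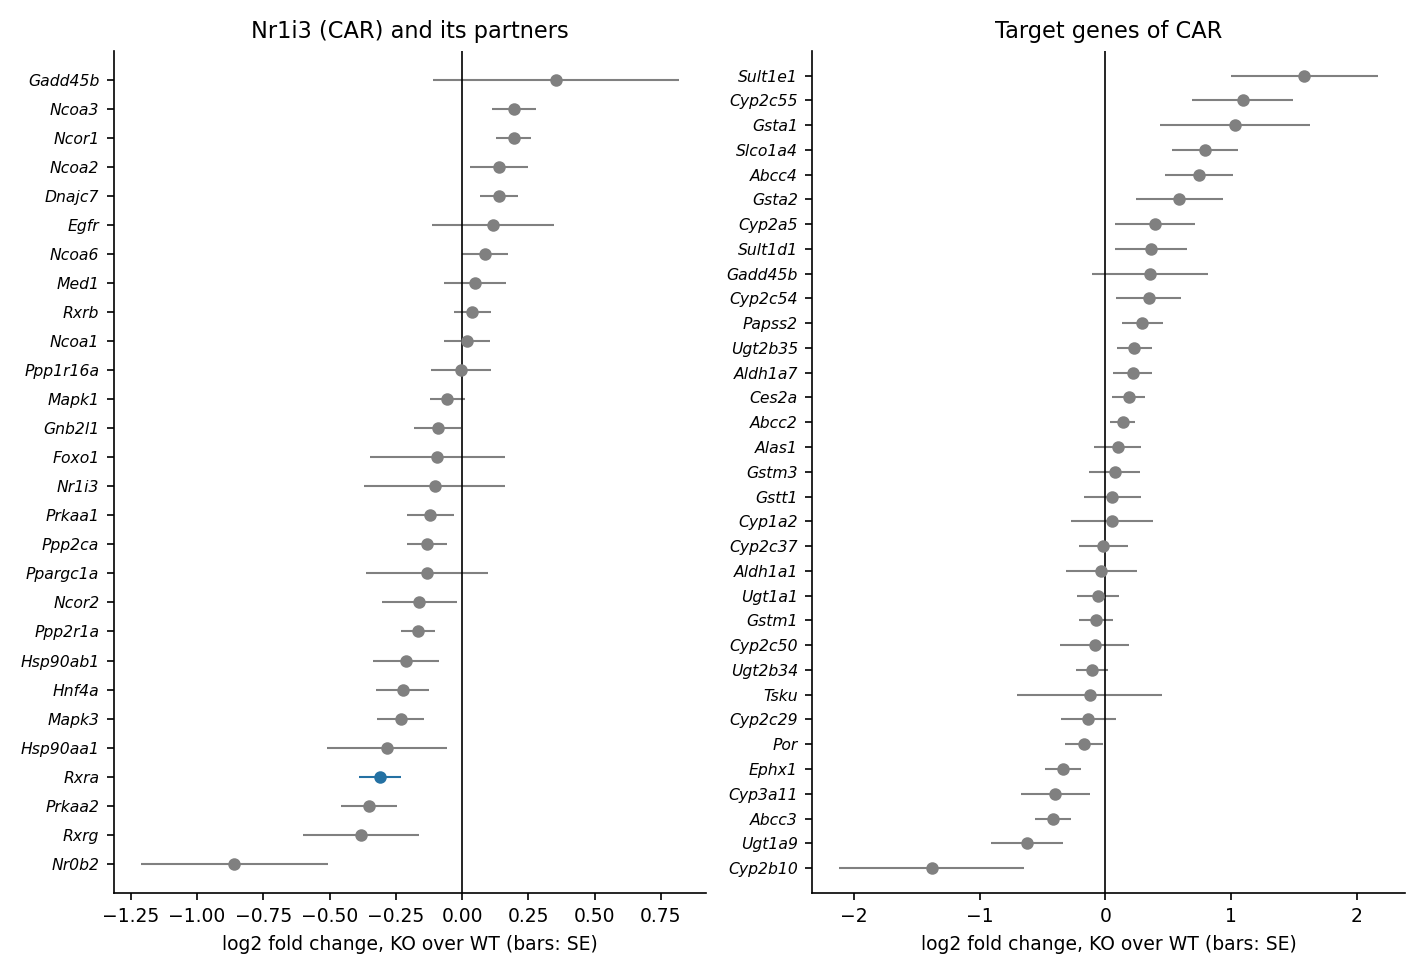
Log2 fold change of KO over WT with its standard error (bars), ordered by size, for Nr1i3 with its 27 tested partners on the left and for 33 tested CAR target genes on the right, where blue marks an adjusted p under 0.05. Rxra, at −0.31, is the single coloured point, and points lie on both sides of 0 in both panels.

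Because Cyp2b9 is a gene of female liver, other sex-biased genes were listed beside it. Of 31 female-biased genes with a count row, 17 were tested, with a median log2 fold change of 0.39. Cyp2b9 was the 1 gene that was higher in KO, with none lower (5.88% called, against 3.82% of all tested genes). That call is the rise known when the genes were chosen, so the share is no independent evidence. In libraries 573 to 602 alone Cyp2b9 did not pass, and the 1 female-biased gene called was lower in KO. The 14 genes that were not tested were too low, and 5 of them had no count in any library. None of these 14 separated the genotypes, but most had too few counts for a separation to be seen, so nothing follows from it. Among the tested genes, which passed the filter, 3.30% separated the genotypes. Of 27 male-biased genes, all tested, 2 were higher and none lower (7.41% called, against 3.82% of all tested genes), with a median of −0.01. These were Mup20, or darcin, a male urinary pheromone carrier (log2 fold change 1.29), and Mup21 (1.00), from a family of near-identical genes among which reads may be divided. In libraries 573 to 602 alone the call of Mup21 was lost (adjusted p = 0.0573, edgeR). DESeq2, and edgeR without KO 602, each called 2 male-biased genes higher and 1 lower in KO. Of 20 regulators of sex-biased expression, 2 were higher and none lower in KO (10% called, against 3.82% of all tested genes), with a median of 0.22. The other of these 2 is not reported here. The pioneer factor Foxa1 was higher at 19.4 ± 4.29 CPM in KO and 12.3 ± 2.85 CPM in WT (log2 fold change 0.65, adjusted p = 0.0473, edgeR). Foxa1 passed in only 3 of 12 fits that each left out a library, and its call was lost in limma-voom (adjusted p = 0.0595) and with the range of library numbers as a term (log2 fold change 0.53, adjusted p = 0.0667, edgeR). It was also lost without the low-count filter (0.0618), in libraries 573 to 602 alone (0.272) and without the 3 libraries high in acute phase genes (0.142). Cux2, a repressor of male-biased genes found in female liver, reached 22.3 CPM in KO 584 but did not pass (log2 fold change 1.70, adjusted p = 0.383, edgeR).

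None of 16 genes of P450 electron donors and haem supply passed in edgeR, with a median log2 fold change of −0.10, 2 at an unadjusted p under 0.05 and 2 calls in DESeq2. With the range of library numbers as a term, edgeR called 2 of them lower in KO, and without KO 588 it called 1 lower. Pgrmc1, a haem-binding partner of P450s, was at 901 ± 129.3 CPM in KO and 1159 ± 76.4 CPM in WT, a log2 fold change of −0.36 (adjusted p = 0.0786, edgeR). Around the central vein, where CAR targets are usually strongest, none of 25 pericentral genes passed in edgeR, with a median of −0.10, 5 at an unadjusted p under 0.05 and 3 calls in DESeq2. With the range of library numbers as a term, edgeR called 2 of these lower in KO, and it called 1 lower without the low-count filter, without KO 588, without WT 590 and without the 3 libraries high in acute phase genes. Notum and Gulo came closest at −0.46 and −0.57. The pericentral list shares genes with that of CAR targets, such as Cyp2c29 and Cyp3a11. So does the electron donor list, with Por and Alas1, so these lists are not independent. None of 20 genes of fasting passed in edgeR, with a median of −0.07, 2 at an unadjusted p under 0.05 and 0 calls in DESeq2. The closest were Mogat1 at −0.81 and Cd36 at 0.59. Over all 13706 tested genes, 3.82% passed in edgeR and DESeq2 called 1175, while no such share is given for the unadjusted cut.

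Summed genes of the acute phase response, the liver's reaction to inflammation, were highest in 3 libraries across both genotypes. The summed level of 28 such genes was 132760 CPM in KO 602, 85040 CPM in WT 590 and 64879 CPM in WT 601, against 19178 to 43472 CPM in the other KO libraries and 16823 to 23743 CPM in the other WT libraries. KO 602 had the lowest Cyp2b9 of its genotype and WT 590 the lowest of its own, whereas WT 601 had the highest WT value. The acute phase gene Saa1 was also high in KO 588 (3653 CPM) and KO 591 (1840 CPM). It was at 70.4 to 83.8 CPM in KO 574, KO 584 and KO 780. Cyp2b9 stood at 97.6 CPM in KO 588 and 58.1 CPM in KO 591. Without KO 602, WT 590 and WT 601 the log2 fold change of Cyp2b9 was 6.34 (adjusted p = 0.0011, edgeR), that of Cyp2b10 −1.52 (adjusted p = 0.224) and that of Nr1i3 −0.02 (adjusted p = 0.981). None of the 28 genes passed between genotypes in edgeR, with a median of 0.30, 2 at an unadjusted p under 0.05 and 1 call each in DESeq2, in limma-voom and, in edgeR, without KO 591 or with a mean of at least 1 CPM. Their part in the spread of Cyp2b9 was not tested. The closest were Il6st, the shared receptor chain of the interleukin 6 family, at a log2 fold change of 0.32, and Lbp at −0.30. Over all 13706 tested genes, 3.82% passed in edgeR and DESeq2 called 1175, while no such share is given for the unadjusted cut.

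**Figure D4:**
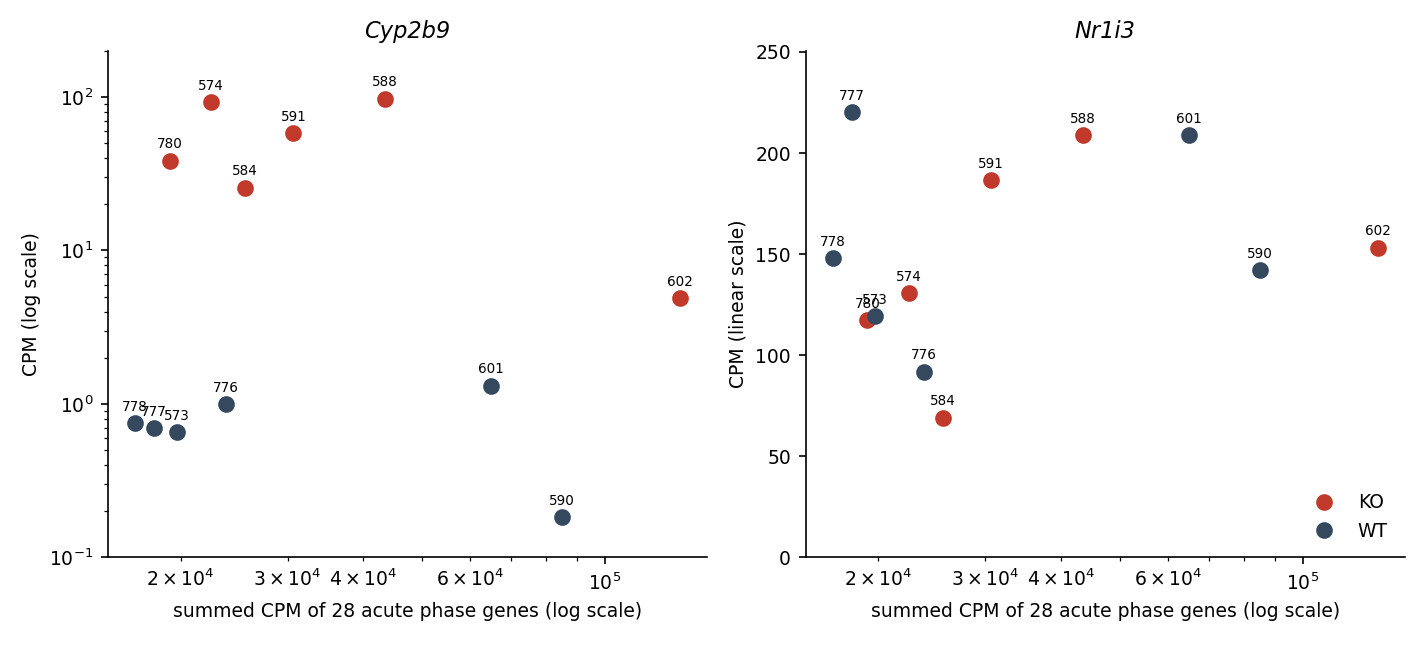
CPM of Cyp2b9 (left, log axis) and Nr1i3 (right, linear axis from 0) against the summed CPM of 28 acute phase genes (log axis) in each library, red for KO and dark for WT. KO 602 and WT 590, on the right, hold the lowest Cyp2b9 of their genotypes, while WT 601, also on the right, holds the highest WT value, and Nr1i3 shows no such low points.

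Markers of other liver cells were read in the same way. The summed level of 11 Kupffer cell markers was 138.2 to 490.9 CPM in KO and 134.4 to 221.6 CPM in WT. All 11 had a log2 fold change above 0, as had 7101 of 13706 tested genes. Of these 11, 10 had an unadjusted p under 0.05 in edgeR, a cut for which no share of all tested genes is given here. None passed the adjusted threshold, against 3.82% of all tested genes. Summed over 11 stellate cell markers, the level was 239.1 to 330.5 CPM in KO and 142.8 to 264.6 CPM in WT. All 11 were above 0, with 5 at an unadjusted p under 0.05. The adjusted threshold was passed by 2, Pdgfrb and Lrat (18.2% called, against 3.82% of all tested genes). Summed over 10 sinusoidal endothelial markers, it was 240.4 to 289.4 CPM in KO and 151.1 to 297.7 CPM in WT. All 10 were above 0, with 2 at an unadjusted p under 0.05. The adjusted threshold was passed by 1, Stab2 (10% called, against 3.82%). Summed over 6 cholangiocyte markers, the level was 514.8 CPM in KO 602, 28.5 to 60.4 CPM in the other KO libraries and 34.5 to 120.7 CPM in WT. None of the 5 that were tested passed the adjusted threshold in edgeR, and 0 had an unadjusted p under 0.05. Only 2 of 6 markers of T and NK cells, 4 of 6 of neutrophils and monocytes and all 5 of red cells were tested. These markers held no call in edgeR, with 1 gene of each set at an unadjusted p under 0.05. With so few genes tested, little can be said of these cells. Their part in the values of Cyp2b9 was not tested.

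The genes whose levels followed each member most closely were taken from 11953 tested genes with a mean of at least 1 CPM, as Pearson correlations over 12 libraries after each genotype's mean was subtracted. They are a description, since all genes of a library share its depth and RNA. Cyp2b9 was followed by Sdhc (0.88), Ndufa10 (0.86), Ppp1r15a (0.85), Coq5 (0.85) and Calr3 (0.84). Sdhc, for example, was at 109.7 CPM in KO 602 and 136.3 to 148.2 CPM in the other KO libraries. In WT it was at 138.1 CPM in WT 590 and 147.1 to 153.1 CPM in the others. Sdhc, Ndufa10 and Ppp1r15a were each lowest of their genotype in KO 602 and WT 590, where Cyp2b9 was lowest too. How far the correlations rest on these libraries was not tested. Cyp2b10 was followed by Ribc1 (0.95), Ecm1 (0.93), Atl2 (0.92), Sesn2 (0.92) and Tob2 (0.91). Nr1i3 was followed by Tmem8 (0.97), Wee1 (0.95), Rbpms2 (0.95), Ces1d (0.94) and Khk (0.94). Between the members the same measure was 0.59 for Cyp2b9 with Cyp2b10, 0.19 for Cyp2b9 with Nr1i3 and 0.0062 for Cyp2b10 with Nr1i3.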

How the data were processed

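Frozen livers gave RNA with a miRNeasy kit, and libraries were made with a TruSeq RNA kit, per the labels' protocols. The authors deposited raw counts of read pairs over exons for each gene name. Per the file headers, featureCounts 1.5.0-p2 was run on GENCODE M8 with no option for strand, on alignments marked for duplicates. STAR, DESeq2 and the mm10 build are named in the submitters' processing notes. A second value per gene in the deposited table, its exonic length, was used for levels per kilobase. Every pair of libraries within a group differed by more than counting noise (lowest chi-square per degree of freedom 15.2).

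The software was edgeR 4.0.16 in R 4.3.3, with limma 3.58.1. After filterByExpr (at a minimum count of 10) and TMM scaling, a robust quasi-likelihood fit with a single genotype term compared KO against WT. Benjamini-Hochberg adjustment ran over all 13706 genes, with a threshold of 0.05. The size of a log2 fold change divided by the square root of F gave its standard error. Log2 CPM used a prior count of 2. These steps were tested on simulated counts. Other settings were RLE, library totals only, no filter, at least 1 CPM on average, limma-voom, DESeq2 1.42.0, the range of library numbers as a term or its larger range alone, no deepest library of each genotype, and each library left out. Leaving out the 3 libraries whose summed acute phase genes exceeded 50000 CPM was added after the data were seen. Floors of 3 counts and intervals cover counting error only.

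The members and gene lists were chosen with earlier results of these data known. Named genes were all members and Cyp2b genes, the 4 list members of smallest p among those called, or at most 2 where none was, genes overlapping a member, and for each tested member the 5 most correlated genes. Nr0b2, Cux2, Cyp2c29, Cyp3a11, Cyp2c38, Cyp2c70 and the neighbours of Cyp2b9 were named after their values were seen. Some genes that this rule took are not reported here. No protein sequence was used here.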

Additional observations from a re-analysis of the deposited data

Results flagged for a closer look

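Cyp2b10 in KO 780 lay far from the other 5 KO libraries, at 1.43 CPM against 0 to 0.453 CPM, with a gap to its nearest neighbour above Dixon's 95% critical value for 6 samples. Chance marks about 1 in 20 such groups. KO 780 is the only KO library of the range 776 to 780, in which the 3 WT libraries stood at 1.66 to 1.86 CPM.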

How the results depend on the processing

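No paired analysis was possible because the genotypes share no library number. The fold change of Cyp2b9 kept its direction and passed under every setting but 1. Only libraries 573 to 602 gave 6.32 on the log2 scale for Cyp2b9 (adjusted p = 0.106, edgeR) and 5.66 for the 5 Cyp2b genes summed (adjusted p = 0.12, edgeR), with 5 KO and 3 WT libraries. The count of genes past the threshold, 523, became 1175 in DESeq2, 57 in libraries 573 to 602 alone and 206 without the deepest library of each genotype. Leaving out each library in turn gave 266 to 638 genes, the count moving by over 1.5 times without KO 574 (315), KO 588 (319), KO 591 (324), WT 573 (312), WT 777 (266) or WT 778 (294). The same fits gave log2 fold changes of 5.85 to 6.37 for Cyp2b9 and 4.59 to 5.10 for the summed genes, all 12 past the threshold, and of −2.20 to −1.14 for Cyp2b10 and −0.24 to 0.039 for Nr1i3, none past it. Nr1i3 changed sign without KO 584 (0.039) and without WT 777 (0.022). The cause of these changes was not tested. Cyp2b10 has no value with a mean of at least 1 CPM or in libraries 573 to 602 alone, where it was filtered out, and at 0 to 52 counts per library depth limits what can be said of it.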
